A study of Mus musculus with 4 samples.

Results

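The nuclear genes for the subunits of the oxidative phosphorylation complexes, which carry out the last stage of mitochondrial energy metabolism, were followed across 4 arrays of mouse whole brain. Members were all nuclear protein-coding genes whose symbol begins with Nduf (assembly factors beginning with Ndufaf were left out), Uqcr, Atp5 or Cox4 to Cox8, together with Sdha, Sdhb, Sdhc and Sdhd. By the gene annotation of RefSeq, 88 genes met this rule, and 84 of them had at least 1 probe (106 probes of 56605 on the array). Cox5b, Ndufb1, Ndufb4b and Ndufb4c had no probe named here and were not analysed here. Of the 84 genes, 83 were well above background on at least 2 arrays and entered the tests, out of 17132 genes tested in all. The exception was Cox8c, an isoform found chiefly in testis, which was not well above background on any array. The 83 genes comprised 36 of complex I, 4 of complex II, 8 of complex III, 18 of complex IV and 17 of complex V.

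The study set wild-type mice against Nav1.8CreROSA26DTA mice, each given phosphate-buffered saline (PBS) or lipopolysaccharide (LPS, a cell wall component of Gram-negative bacteria used to model sepsis). The dose of LPS was 20 mg/kg, given intraperitoneally, and the brains were collected after 12 hours. In Nav1.8CreROSA26DTA mice, Cre driven by Scn10a, which encodes the sodium channel Nav1.8, turns on diphtheria toxin A and so kills sensory neurons of that lineage, cells whose bodies lie in peripheral ganglia and not in the tissue measured. There was 1 array for each of the 4 groups, from a single mouse or from pooled mice (the labels leave this unsaid), so group and animal cannot be told apart. Age, sex and background strain are likewise unstated. The arrays shared a slide and a scan, and PBS and LPS arrays sat in separate rows and the genotypes in separate columns of it, so slide position cannot be told apart from group either.

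Oxidative phosphorylation passes electrons from NADH through complex I, or from succinate through complex II, to coenzyme Q, then through complex III and cytochrome c to complex IV, where oxygen is reduced. Complexes I, III and IV pump protons across the inner mitochondrial membrane, and complex V, the ATP synthase, uses the proton gradient to make ATP. Most subunits are encoded in the nucleus and a few of complexes I, III, IV and V in mitochondrial DNA. In brain, the pathway supplies most of the ATP that neurons spend on ion pumping and synaptic transmission.

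Many of these genes have promoters without a TATA box that carry matches to the factors NRF1 and NRF2 (GABP, of the ETS family), textbook regulators of respiratory subunits. In RefSeq promoter windows of GRCm38.p6, from 250 bases before to 50 bases after a start, 73 windows were found for 68 of the tested members. Both strands were searched, and matches of different motifs were allowed to overlap. The letters GCGCNTGC, a match to NRF1, lay in 38.4% of the member windows, against 9.61% of all 32851 windows of that length. With GC added at the end, a stricter match, the shares were 24.7% and 4.60%. The letters CCGGAAG, a match to the ETS family, lay in 23.3% of member windows and 8.86% of all. The letters AAGATGGC, a match to YY1, lay in 13.7% and 2.75%. The GC box GGGCGG lay in 41.1% and 35.7%, and TATAAA in 12.3% and 13.6%. Member windows had a median GC content of 57.3% and 19 CpG sites, against 52.7% and 7 over all windows, and the part of base composition in these shares was not tested. A match is a run of letters and does not show binding.

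The 120 bases before the start are shown, on the strand of the gene, for Atp5k, Cox7a2l and Ndufb7, the lowest by LPS effect among the 5 members with an unadjusted p under 0.05 described further on, and for Sdhd, Atp5pb and Ndufc2, the 3 with the highest LPS effect. Capitals mark matches to the NRF1 or ETS letters. The stretches are chr5:108434400-108434519 (minus strand) for Atp5k, chr17:83514334-83514453 (minus) for Cox7a2l, chr8:83566638-83566757 (plus) for Ndufb7, chr9:50603850-50603969 (minus) for Sdhd, chr3:105959264-105959383 (minus) for Atp5pb and chr7:97399883-97400002 (plus) for Ndufc2, all in GRCm38.p6.
Atp5k: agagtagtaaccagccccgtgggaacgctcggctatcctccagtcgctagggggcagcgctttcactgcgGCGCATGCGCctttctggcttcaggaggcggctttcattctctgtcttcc
Cox7a2l: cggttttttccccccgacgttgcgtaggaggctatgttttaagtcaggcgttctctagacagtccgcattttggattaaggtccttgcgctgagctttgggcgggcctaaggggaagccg
Ndufb7: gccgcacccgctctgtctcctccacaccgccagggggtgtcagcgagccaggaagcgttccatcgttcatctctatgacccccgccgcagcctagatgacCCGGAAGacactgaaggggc
Sdhd: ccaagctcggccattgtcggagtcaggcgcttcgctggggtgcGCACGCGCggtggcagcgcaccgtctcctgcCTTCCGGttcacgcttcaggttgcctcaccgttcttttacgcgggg
Atp5pb: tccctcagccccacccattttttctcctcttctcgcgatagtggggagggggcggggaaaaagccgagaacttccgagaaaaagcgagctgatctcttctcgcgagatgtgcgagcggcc
Ndufc2: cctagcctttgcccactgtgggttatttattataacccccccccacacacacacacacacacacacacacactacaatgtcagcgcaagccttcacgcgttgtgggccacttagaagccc
Atp5k carries NRF1 letters that read on both strands, Ndufb7 carries 1 ETS match and Sdhd carries both, while the other 3 stretches carry neither. The matches thus stood on both sides of the ordering by LPS effect. Over the tested members with a window, the 27 with NRF1 letters had a median LPS effect of -0.12 and the 41 without had -0.04 (log2). By the stricter match the medians were -0.11 over 17 and -0.06 over 51. These medians are a description with no test.

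Levels are the log2 ratio of the background-subtracted processed signal to its 75th percentile on the same array, so a value of 0 is the brightness at that percentile. Brightness differs between probes for technical reasons, so a level is set against the same probe on other arrays, and a probe is called bright or dim only as a mark of how well it was measured. The LPS effect is the mean of the 2 LPS arrays minus the mean of the 2 PBS arrays, and the genotype effect is the mean of the 2 Nav1.8CreROSA26DTA arrays minus the mean of the 2 wild-type arrays, both from 1 limma model with terms for genotype and agent. Each ± is limma's standard error, and p-values are two-sided with Benjamini-Hochberg adjustment over all 17132 genes and a threshold of 0.05. The model leaves 1 residual degree of freedom, to which limma adds 7.99 from genes of like intensity, so each error reflects other genes more than the gene itself and does not measure the spread between animals. A difference between 2 single arrays has no replicate check and no test.

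The subunit transcripts varied little over the 4 arrays. The range of a member's 4 values had a median of 0.20 on the log2 scale, against 0.37 over all genes tested. It was below 0.3 for 74 of 83 members, against 39.3% of all genes. Of the 83 members, 76 had a mean above the 75th percentile of the arrays, and all genes were not matched to them for brightness. Errors were wider for dim probes, at 0.25 for the LPS effect of Cox7b2 against 0.09 for that of Cox4i1. The part of brightness in these and the later comparisons of ranges, effect sizes and intervals with all genes was not tested. Uqcrfs1, the Rieske iron-sulfur protein of complex III, had the smallest range, with values of 3.83, 3.84, 3.84 and 3.84 on the wild-type PBS, Nav1.8CreROSA26DTA PBS, wild-type LPS and Nav1.8CreROSA26DTA LPS arrays, an order kept for all values below (it was chosen after its values were seen). The largest range, 0.92, belonged to Cox7b2, 1 of the 3 dimmest tested members. None of the 83 members differed 2-fold or more between any 2 arrays compared. Among genes well above background on both arrays, 3.41% were at least 2-fold higher and 0.618% at least 2-fold lower with LPS in wild-type mice, 3.1% and 1.42% with LPS in Nav1.8CreROSA26DTA mice, 1.21% and 0.415% between genotypes with PBS, and 0.829% and 0.369% between genotypes with LPS.

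No subunit gene passed the test for the LPS effect. By limma, 0 of 83 rose, where 5.62% of all genes did, and 0 of 83 fell, where 4.54% did. At an unadjusted p under 0.05, 5 members were lower (13.1% of all genes were) and 0 were higher (10.4%). The fitted LPS effects ran from -0.33 to 0.13, with a median size without regard to sign of 0.09, against 0.17 over all genes, and 24.4% of all genes had an effect larger in size than that of any member. An effect of 0.5 or more in size was seen for 0 of 83 members and for 13.3% of all genes. The 95% interval lay within 1 log2 unit of 0 for 83 of 83 members (84.4% of all genes) and within 0.5 for 78 of 83 (52.1%).

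**Figure D1:**
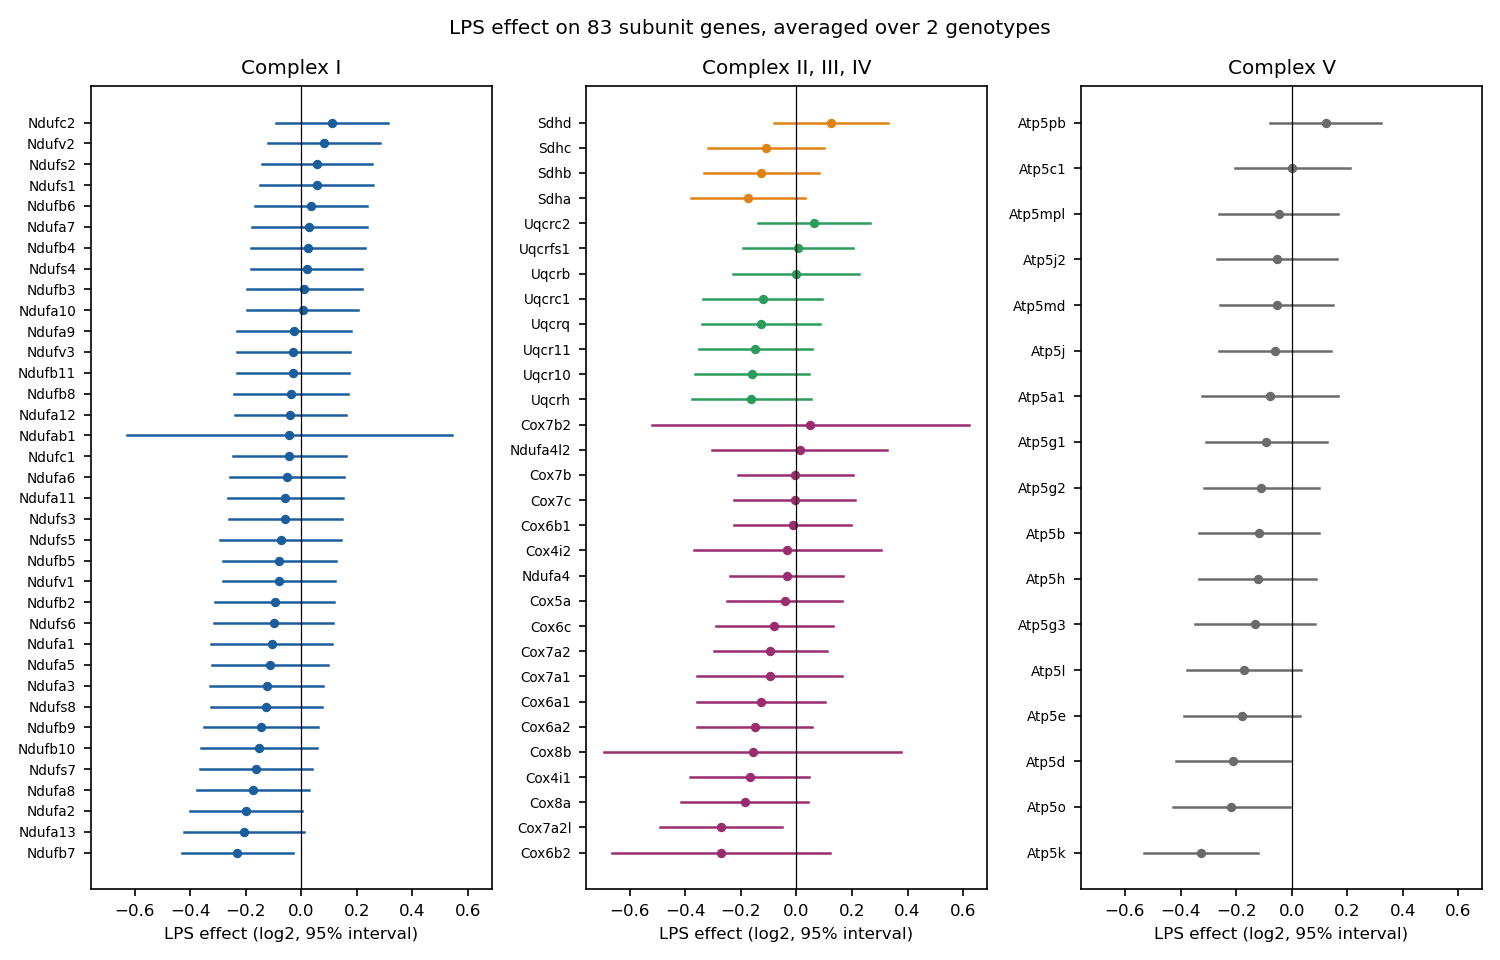
LPS effect on each of the 83 tested subunit genes (points, log2, mean of 2 LPS arrays minus mean of 2 PBS arrays) with limma's 95% interval (lines), in order within each complex. Points run from -0.33 for Atp5k to 0.13 for Sdhd, and every interval lies within 1 log2 unit of 0.

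The median LPS effect over the 83 members was -0.08, beside -0.03 over all genes, and 66 of 83 lay below 0 against 56.0% of all genes, but the direction of this small median turned with the scaling between arrays: it was 0.017 after cyclic loess (36 below 0) and 0.020 after quantile normalisation (33 below 0). It was -0.13 with scaling to the array median (77 below 0) and -0.0095 in the authors' deposited value table (45 below 0). Over all genes the median was 0.016, -0.017, -0.088 and 0.037 in these settings, in the order given. Median scaling and the deposited table apply 1 factor per array and so move all genes alike. The member median minus that of all genes was -0.046 in both, as with the reported scaling. It was 0.0005 after cyclic loess and 0.036 after quantile normalisation. A shared direction for the family is therefore not established by these 4 arrays. In bulk tissue, moreover, fewer cells of a type and less RNA per cell cannot be told apart. Of 14 neuronal markers tested, 2 fell with LPS (Tubb3 by 0.58 and Map2 by 0.34), and the median over the 14 was -0.09. The log2 of their summed signal was 8.98 and 8.93 on the PBS arrays and 8.84 and 8.79 on the LPS arrays, a sum carried mostly by the brightest probes. Over all genes 5.62% rose and 4.54% fell, with a median of -0.03. Markers of other brain cell types were called in both directions within each list. The median LPS effect was -0.36 over 8 microglial markers (1 rose, 3 fell) and -0.32 over 8 oligodendrocyte markers (1 rose, 2 fell). It was -0.15 over 8 astrocyte markers (1 rose, 2 fell) and -0.03, as over all genes, over 10 markers of endothelium and pericytes (1 rose, 3 fell). In the same order as these lists, the log2 of the summed signal was 6.91 and 6.86 with PBS against 6.91 and 6.87 with LPS, 6.63 and 7.17 against 6.15 and 7.30, 8.17 and 8.29 against 8.09 and 8.10, and 4.64 and 4.81 against 5.41 and 5.16. The part of cell content in the subunit values was not tested.

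**Figure D2:**
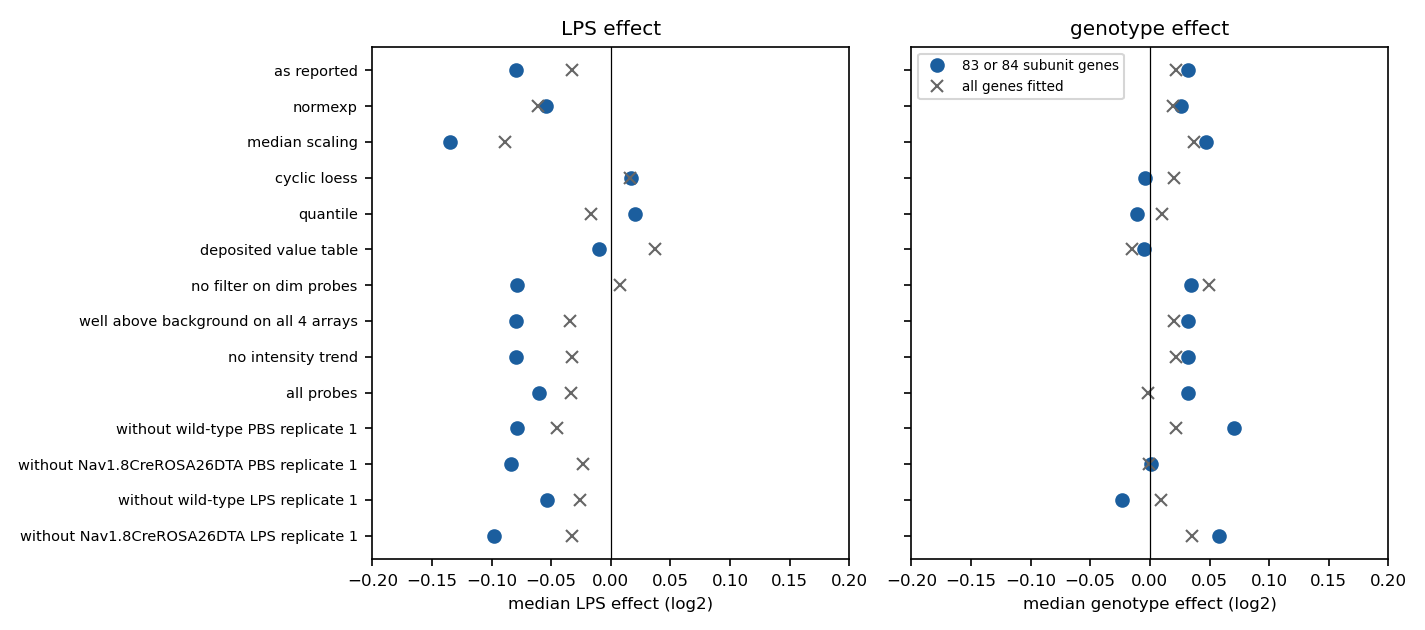
Median LPS effect (left) and genotype effect (right), on the log2 scale, over the subunit genes (circles) and over all genes fitted (crosses) as reported and under each alternative processing or left-out array. The LPS median lies left of 0 in most settings but is 0.017 after cyclic loess and 0.020 after quantile normalisation.

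Complex I, the NADH dehydrogenase, has 7 nuclear-encoded core subunits, and its remaining nuclear subunits are termed accessory. Its 36 tested members had a median LPS effect of -0.05, with 26 below 0, and the median was 0.04 after cyclic loess and after quantile normalisation and 0.015 in the deposited table. Over all genes the median in the deposited table was 0.037. The core subunits had a median of -0.06 (4 of 7 below 0) and the accessory subunits -0.05 (22 of 29 below 0). By genotype the medians were -0.02 and -0.10 in wild-type mice and -0.07 and -0.03 in Nav1.8CreROSA26DTA mice, and differences between the parts were not tested. The lowest effect was that of Ndufb7, an accessory subunit that faces the intermembrane space. Its values were 4.62, 4.63, 4.4 and 4.39, so both LPS arrays lay below both PBS arrays, for an effect of -0.23 ± 0.09 (adjusted p = 0.151, limma). The highest was that of Ndufc2, an accessory subunit of the membrane arm, at 4.85, 4.68, 4.94 and 4.81. Each LPS value lay above the PBS value of the same genotype, but the PBS and LPS arrays overlapped, and the effect was 0.11 ± 0.09 (adjusted p = 0.517).

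Complex II, succinate dehydrogenase, links the tricarboxylic acid cycle to the chain and is the only complex with no subunit from mitochondrial DNA. Sdha, the flavoprotein that oxidises succinate, read 4.07, 4.14, 3.97 and 3.89, lower on both LPS arrays than on both PBS arrays, with an effect of -0.17 ± 0.09 (adjusted p = 0.295). Sdhd, a membrane anchor, read 3.53, 3.5, 3.59 and 3.69, higher on both LPS arrays, with an effect of 0.13 ± 0.09 (adjusted p = 0.465), the highest of all members. The other anchor, Sdhc, had an effect of -0.11, and the iron-sulfur subunit Sdhb -0.13. Second probes, also well above background on all 4 arrays, gave -0.015 for Sdha and 0.05 for Sdhb, so the direction for Sdhb turned with the probe. None of the 4 subunits passed the test.

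Complex III, the cytochrome bc1 complex, hands electrons from coenzyme Q to cytochrome c. Of its 5 small subunits, 4 had fitted LPS effects below 0 beyond 0.1, and Uqcrb, also called the ubiquinone-binding protein, had -0.0006, with responses of -0.14 in wild-type and 0.14 in Nav1.8CreROSA26DTA mice and 0.09 from its other probe. Uqcrh, the hinge protein that helps cytochrome c1 meet cytochrome c, read 6.10, 6.07, 5.87 and 5.97, with both LPS arrays below both PBS arrays and an effect of -0.16 ± 0.09 (adjusted p = 0.351). The core protein Uqcrc2, the highest of the complex, read 4.43, 4.52, 4.53 and 4.55, for an effect of 0.06 ± 0.09 (adjusted p = 0.727). The median over the 8 members of complex III was -0.12, and it was -0.016 after cyclic loess and -0.012 after quantile normalisation.

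Complex IV, cytochrome c oxidase, has main isoforms and tissue-restricted isoforms or paralogs for several of its nuclear subunits. The 10 main isoforms had a median LPS effect of -0.06, with all 10 below 0, and the 8 tested restricted isoforms or paralogs -0.12, with 6 below 0. Over the 18, the median was -0.09, but it was 0.021 after cyclic loess and 0.0088 after quantile normalisation. The lowest were the dim Cox6b2, described below, and Cox7a2l, both at -0.27. Cox7a2l, also called SCAF1, is a relative of subunit 7a that joins complexes III and IV into supercomplexes. It read 5.49, 5.59, 5.32 and 5.21, with both LPS arrays below both PBS arrays, for an effect of -0.27 ± 0.10 (adjusted p = 0.124). The highest was the dim Cox7b2, described below with its paralog.

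Complex V, the ATP synthase, consists of a catalytic head, a ring of subunit c turned by protons, a peripheral stalk and small membrane subunits. The 17 members had a median LPS effect of -0.11, with 15 below 0, but the median was 0.016 after cyclic loess and 0.020 after quantile normalisation. Atp5k, which encodes subunit e, a small membrane subunit at the contact between 2 synthases of a dimer, had the lowest LPS effect of all 83 members. It read 5.55 and 5.57 on the PBS arrays and 5.23 and 5.23 on the LPS arrays, so the difference was nearly equal in both genotypes and the groups did not overlap. The effect was -0.33 ± 0.09 with a 95% interval from -0.53 to -0.12, and its adjusted p of 0.0532 missed the threshold. It passed with normexp background correction (-0.33, adjusted p = 0.0104), with scaling to the array median (-0.38, adjusted p = 0.0341) and with no filter on dim probes (-0.33, adjusted p = 0.0261). Over 12 alternatives and left-out arrays that kept 1 probe per gene, its effect ran from -0.38 to -0.20, always below 0, and its adjusted p from 0.0104 to 0.310.

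Atp5o, the stalk subunit known as OSCP that fixes the head to the peripheral stalk, read 5.97, 6.07, 5.80 and 5.81, an LPS effect of -0.22 ± 0.09 (adjusted p = 0.198). Atp5d, the delta subunit of the central stalk, read 3.80, 3.91, 3.66 and 3.63, an effect of -0.21 ± 0.09 (adjusted p = 0.20). At the other end of the complex, Atp5pb, subunit b of the peripheral stalk, read 4.76, 4.75, 4.88 and 4.88, higher on both LPS arrays, with an effect of 0.12 ± 0.09 (adjusted p = 0.465). Subunits of the same stalk thus lay at both ends of the ordering, and none passed the test.

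Those 5 members with an unadjusted p under 0.05, named after their values were seen, therefore came from complexes I (Ndufb7), IV (Cox7a2l) and V (Atp5k, Atp5o and Atp5d). Each was lower on both LPS arrays than on both PBS arrays, and the fitted LPS effect of each was below 0 in all 12 such alternatives and left-out arrays. The adjusted p of Cox7a2l ran from 0.0802 to 0.617 over these, that of Ndufb7 from 0.0926 to 0.562, that of Atp5o from 0.144 to 0.614 and that of Atp5d from 0.116 to 0.669. The effects of Sdhd, Atp5pb and Ndufc2 were above 0 in all 12. These are the members farthest from 0, chosen on these values, so this says nothing of the others.

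Different probes of 1 gene gave a measure of error within the arrays. For 19 members several probes were measured, and the LPS effects of a gene's probes spread by a median of 0.08 and at most 0.17, for Sdhb. For 6 of the 19 the probes differed in the sign of the LPS effect. This is about the size of the typical LPS effect among members. The genotype effects of a gene's probes spread by a median of 0.04. The exception was Ndufb8, an accessory subunit of complex I, whose dimmer probe, designed on another accession, gave a genotype effect of 0.61 where its brighter probe gave 0.06. Atp5g2, printed as repeated spots of 1 probe, had an SD between spots of 0.067 to 0.094 within an array.

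No subunit gene passed the test for genotype. By limma, 0 of 83 members were higher in Nav1.8CreROSA26DTA mice (0.304% of all genes) and 0 of 83 were lower (0.105%). With shares this small, counts of 0 among 83 genes lie near those of all genes and do not set the members apart. At an unadjusted p under 0.05, 1 was higher (6.69% of all genes) and 1 was lower (3.5%). No alternative that kept all 4 arrays gave a call. Without the intensity trend 0 genes in all were called for genotype, so that setting could not give a call among members. The median genotype effect was 0.032 beside 0.022 over all genes, but it was -0.0039 after cyclic loess, -0.011 after quantile normalisation and -0.0047 in the deposited table. Over all genes it was 0.020, 0.0099 and -0.015 in the same order. The largest genotype effect in size was 0.49, for the dim Cox7b2 (unadjusted p = 0.0858), and 6.91% of all genes had a larger one, while an effect of 0.5 or more was seen for 0 of 83 members and 6.57% of all genes. The 95% interval lay within 1 log2 unit of 0 for 82 of 83 members (88.9% of all genes) and within 0.5 for 79 of 83 (61.5%).

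The higher member was Ndufa3, a small accessory subunit of complex I, at 4.83, 5.05, 4.72 and 4.90. It was higher in Nav1.8CreROSA26DTA than in wild-type mice by 0.23 with PBS and by 0.18 with LPS, with a fitted genotype effect of 0.20 ± 0.09 (unadjusted p = 0.0487, adjusted p = 0.485). Its other probe gave 0.05. The lower member was Cox6a2, the heart and skeletal muscle isoform of subunit 6a, which in brain is known from parvalbumin interneurons. It read 2.30, 2.07, 2.14 and 1.93, lower in Nav1.8CreROSA26DTA mice by 0.23 with PBS and by 0.21 with LPS, for an effect of -0.22 ± 0.09 (unadjusted p = 0.0389, adjusted p = 0.450). Its 2 genotype differences were nearly equal, and its fitted effect was below 0 in all 12 such alternatives and left-out arrays. Of the 5 markers listed for parvalbumin interneurons, 0 passed the test for genotype, 3 were lower at an unadjusted p under 0.05 and the median genotype effect was -0.22. Pvalb itself read 4.13, 3.68, 4.07 and 3.77, a genotype effect of -0.37 ± 0.09 (adjusted p = 0.148). The log2 of the summed signal of the list was 5.73 and 5.60 in wild-type and 5.49 and 5.52 in Nav1.8CreROSA26DTA mice, and its part in the Cox6a2 value was not tested. Of 9 tested striated muscle markers, 0 passed the test for genotype with a median of 0.10, and Ckm, muscle creatine kinase, was not well above background on any array.

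Among the other extremes by genotype, Sdhc in complex II read 2.60, 2.67, 2.43 and 2.63, an effect of 0.13 ± 0.09 (adjusted p = 0.704). Uqcr11, the smallest subunit of complex III, read 5.22, 5.38, 5.06 and 5.25, an effect of 0.17 ± 0.09 (adjusted p = 0.586), and the core protein Uqcrc1 read 4.53, 4.57, 4.52 and 4.34, an effect of -0.07 ± 0.10 (adjusted p = 0.882). In complex V, Atp5g1 had the highest effect, 0.13 ± 0.10 (adjusted p = 0.740), and Atp5j, coupling factor 6 of the peripheral stalk, the lowest, -0.08 ± 0.09 (adjusted p = 0.846). Ndufc2 was the lowest of complex I, at -0.15 ± 0.09 (adjusted p = 0.637). Markers of other cell types differed with genotype: 2 of 8 tested oligodendrocyte markers were higher in Nav1.8CreROSA26DTA mice (median 0.73), as was 1 of 7 red cell markers (median 1.86). At an unadjusted p under 0.05, 8 of 8 oligodendrocyte and 7 of 7 red cell markers were higher, against 6.69% of all genes. Of 7 neutrophil and monocyte markers 0 passed, 5 were higher at an unadjusted p under 0.05, and the median was 0.96. The log2 of the summed signal was 6.63 and 6.15 in wild-type against 7.17 and 7.30 in Nav1.8CreROSA26DTA mice for oligodendrocytes, 6.42 and 7.69 against 9.33 and 8.38 for red cells, and 2.81 and 4.86 against 3.37 and 4.79 for neutrophils and monocytes, and their part in the subunit values was not tested.

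Set out by genotype, the median LPS response of the members was below 0 in both with the reported scaling. In wild-type mice 69 of 83 members were lower with LPS (54.4% of all genes measured on both arrays), with a median of -0.10. In Nav1.8CreROSA26DTA mice 55 of 83 were lower (55.4%), with a median of -0.06. Members lower in both genotypes numbered 49 of 83 (38.5% of all genes), and those higher in both 8 of 83 (28.9%), counts that change with the scaling as the median does. The 10 main isoforms of complex IV were lower in 10 of 10 cases in wild-type mice and in 6 of 10 in Nav1.8CreROSA26DTA mice, a difference with no test. Genotype differences lay below 0 for 36 of 83 members with PBS (42.7%) and for 27 of 83 with LPS (49.2%). Many members hardly moved. The LPS response was within 0.1 log2 units of 0 for 40 of 83 members in wild-type mice (35% of all genes) and for 42 of 83 in Nav1.8CreROSA26DTA mice (26.3%), and the genotype difference was so for 58 of 83 with PBS (34.8%) and 58 of 83 with LPS (39.8%). The LPS response of Nav1.8CreROSA26DTA mice exceeded that of wild-type mice for 54 of 83 members (45.2% of all genes). Across the 83 genes, the responses of the genotypes correlated with r = 0.013 (rho = 0.24), against r = 0.71 (rho = 0.47) over all genes. The points share arrays and scaling and genes are not independent replicates, so this is a description. Over the 76 members with a mean above the 75th percentile of the arrays, r was 0.43 (rho = 0.41).

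**Figure D3:**
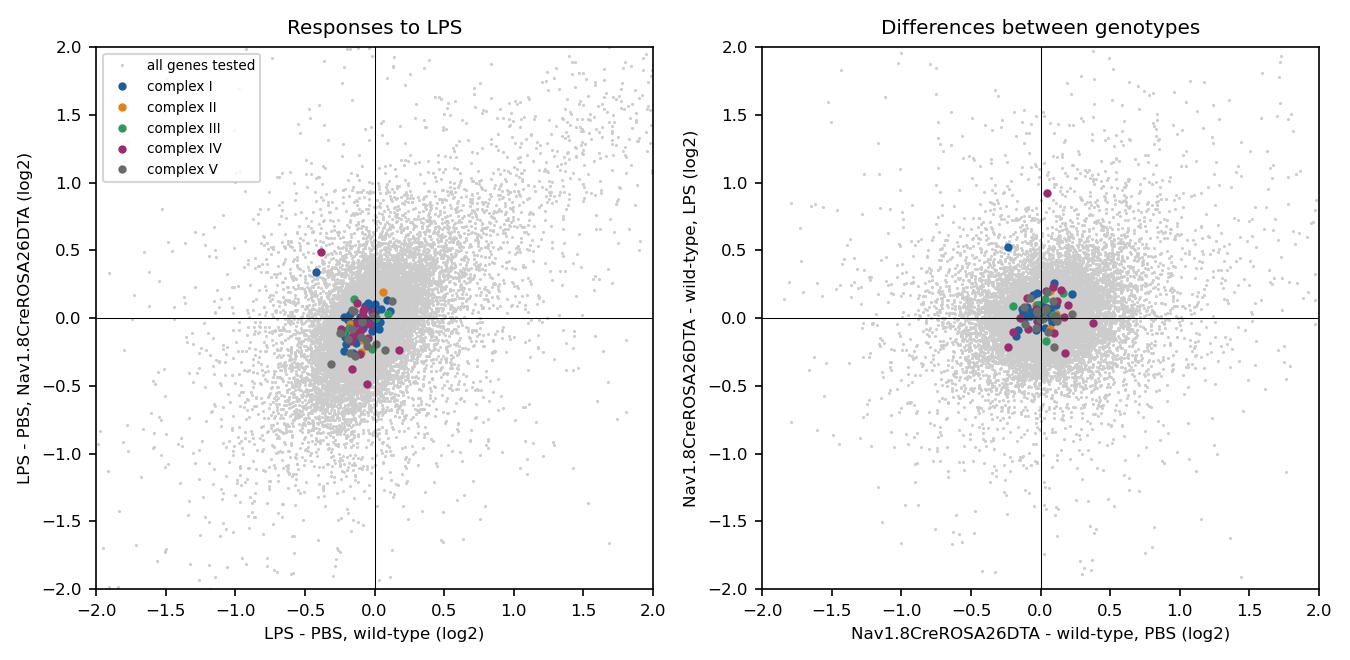
Log2 differences between single arrays for all genes tested (grey) and the 83 subunit genes coloured by complex: left, LPS minus PBS in Nav1.8CreROSA26DTA against wild-type mice; right, Nav1.8CreROSA26DTA minus wild-type with LPS against PBS. Axes stop at 2 log2 units, so grey points beyond are not shown; no subunit gene reaches 1 unit on any axis.

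The members whose LPS responses differed most between genotypes were mostly dim. Cox7b2 responded by -0.39 in wild-type and by 0.49 in Nav1.8CreROSA26DTA mice, and Ndufab1, the mitochondrial acyl carrier protein and a subunit of complex I, by -0.42 and 0.34. The Ndufab1 values were -3.43, -3.67, -3.86 and -3.33, far below the 75th percentile of each array. Cox6b2 followed with a difference of responses of -0.44, then Cox4i2 with -0.41. The brightest of the 5 was Atp5a1, the alpha subunit of the catalytic head, at 6.71, 6.81, 6.79 and 6.57, with responses of 0.08 and -0.23 and a difference of -0.31. These differences are the only residual of the model and have no test.

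Paralogous subunits let a main isoform be set beside its restricted relative on the same arrays. Cox4i1, the common isoform of a regulatory subunit of complex IV, read 6.61, 6.73, 6.44 and 6.56, lower with LPS by 0.17 in both genotypes, for an effect of -0.17 ± 0.09 (adjusted p = 0.336). Cox4i2, known as the lung and low-oxygen isoform, read -1.36, -0.98, -1.19 and -1.22, an effect of -0.03 ± 0.15 (adjusted p = 0.929). Its responses were 0.17 in wild-type and -0.24 in Nav1.8CreROSA26DTA mice, so it had no common direction. Cox6a1, the common isoform of subunit 6a, read 8.0, 8.04, 7.85 and 7.93, an effect of -0.13 ± 0.10 (adjusted p = 0.517) that became 0.12 after quantile normalisation. For Cox6a2 the LPS effect was -0.15 ± 0.09 (adjusted p = 0.377). The isoforms of subunits 4 and 6a thus gave no called LPS effect.

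Cox6b1, the common isoform of subunit 6b, read 2.35, 2.45, 2.27 and 2.50, an LPS effect of -0.01 ± 0.09 (adjusted p = 0.954). Its relative Cox6b2, found chiefly in testis, read -2.03, -1.86, -2.09 and -2.35, an effect of -0.27 ± 0.17 (adjusted p = 0.401). Of the testis markers listed, Ldhc, Odf1 and Prm1 were not well above background on any array and the 2 tested ones did not pass. Cox7a2 read 5.25, 5.16, 5.15 and 5.07, and the muscle isoform Cox7a1 read -0.29, -0.10, -0.34 and -0.24, with LPS effects of -0.09 ± 0.09 and -0.10 ± 0.12 (adjusted p = 0.591 and 0.678). Cox7a2l, their relative that serves supercomplexes, had the lowest effect of the trio, given above, but differences between the trio were not tested. Cox7b read 4.49, 4.35, 4.42 and 4.42, an effect of -0.0037 ± 0.09, and Cox7b2, found chiefly in testis, read -3.26, -3.21, -3.64 and -2.72, an effect of 0.05 ± 0.25 (adjusted p = 0.935). The wide error of Cox7b2 goes with the low brightness of its probe.

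Cox8a, the common isoform of subunit 8, read 7.31, 7.48, 7.20 and 7.21, an LPS effect of -0.19 ± 0.10 (adjusted p = 0.317). Cox8b, the isoform of muscle and brown fat, read -3.66, -3.62, -3.90 and -3.70, an effect of -0.16 ± 0.24 (adjusted p = 0.746). The brown fat markers Ucp1, Adipoq and Elovl3 were not well above background on any array. Of the 3 tested brown fat markers, 1 rose with LPS and 0 fell (median effect 0.08, highest 1.96). For genotype 0 of them passed and 2 were higher at an unadjusted p under 0.05. Of 9 tested striated muscle markers, 0 rose with LPS and 2 fell (median effect -0.32). Over all genes 5.62% rose and 4.54% fell. The part of brown fat and muscle in the Cox8b value, and of muscle in the LPS values of Cox6a2 and Cox7a1, was not tested. Ndufa4, first assigned to complex I and now placed in complex IV, read 4.62, 4.60, 4.54 and 4.61, an effect of -0.04 ± 0.09 (adjusted p = 0.860). Ndufa4l2, its relative that is induced by low oxygen in other settings, read -1.51, -1.37, -1.53 and -1.32, an effect of 0.01 ± 0.14 (adjusted p = 0.975). Neither member of the low-oxygen pair Cox4i2 and Ndufa4l2 passed the test for LPS.

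The 3 genes Atp5g1, Atp5g2 and Atp5g3 encode the same mature subunit c with different import sequences. Atp5g1 read 5.16, 5.39, 5.17 and 5.20, Atp5g2 read 5.26, 5.37, 5.20 and 5.21, and Atp5g3 read 5.92, 5.98, 5.87 and 5.77. On each probe the highest value was that of the Nav1.8CreROSA26DTA PBS array. The LPS effects were -0.09 ± 0.10, -0.11 ± 0.09 and -0.13 ± 0.10 (adjusted p = 0.631, 0.530 and 0.465), so none of the genes for subunit c passed the test.

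**Figure D4:**
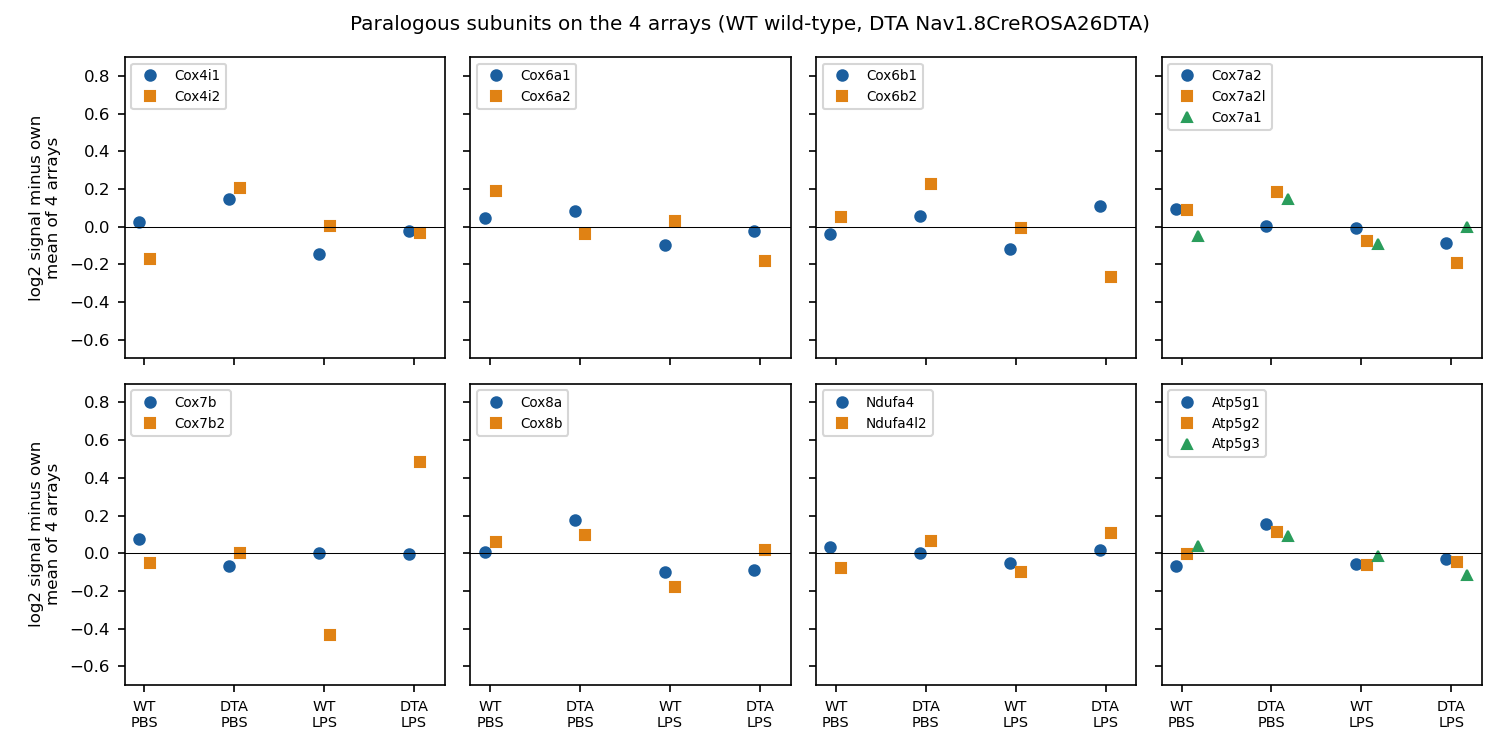
Log2 signal of paralogous subunits on each of the 4 arrays (WT, wild-type; DTA, Nav1.8CreROSA26DTA), as the difference from the probe's own mean over the arrays, 1 point per array and gene. Most points lie within 0.2 log2 units of the line at 0, and Cox7b2, 1 of the dimmest probes, moves furthest, from -3.64 with LPS in wild-type to -2.72 with LPS in Nav1.8CreROSA26DTA mice.

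Among the genes that serve the complexes, few passed the test. The subunits encoded in mitochondrial DNA had no probe named here. Of 54 tested assembly factors, 24 carriers and coenzyme Q genes and 23 regulators of mitochondrial biogenesis, 0 passed in either direction for LPS by limma. Over all genes 5.62% rose and 4.54% fell. At an unadjusted p under 0.05 there were 1 higher and 1 lower among assembly factors, 1 and 0 among carriers, and 2 and 2 among regulators, where 10.4% of all genes were higher and 13.1% lower. The 2 lower regulators were Ppargc1b, at -0.31 ± 0.10 (adjusted p = 0.0875), and Ppargc1a, the coactivator PGC-1alpha, at -0.26 ± 0.09 (adjusted p = 0.127). Ppargc1a read 2.20, 2.06, 1.95 and 1.8, lower with LPS in both genotypes. The 2 higher were Tefm, at 0.40 ± 0.17 (adjusted p = 0.20), and Ssbp1, at 0.29 ± 0.10 (adjusted p = 0.130). These genes were named after their values were seen, and the median over the 23 regulators was 0.07. Of 60 mitochondrial ribosomal protein genes 1 rose and 0 fell, the former being Mrps6 (0.47 ± 0.10, adjusted p = 0.0160).

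Among the fuel genes, Pdk4, the kinase that switches off pyruvate dehydrogenase, was the only 1 of 24 tricarboxylic acid cycle and pyruvate dehydrogenase genes to rise, and none fell. It read -1.08 and -0.56 on the PBS arrays and -0.04 and 0.36 on the LPS arrays, an effect of 0.98 ± 0.12 (adjusted p = 0.000766). Of 24 genes of glycolysis and its transporters, 2 rose and 1 fell. Over all genes tested 5.62% rose and 4.54% fell, and counts this small in lists of 24 lie near those shares. Hexokinase Hk2 rose by 0.77 ± 0.19 (adjusted p = 0.0303) and Pfkfb3, which makes the activator of phosphofructokinase, by 0.64 ± 0.11 (adjusted p = 0.00512). The monocarboxylate transporter Slc16a1 fell by 0.51 on the log2 scale, with a standard error of 0.10 (adjusted p = 0.0136). For genotype, its relative Slc16a3, a lactate exporter, was higher in Nav1.8CreROSA26DTA mice by 0.79 ± 0.12 (adjusted p = 0.0385). This call was lost in 4 alternatives: cyclic loess, the deposited value table, no intensity trend and all probes.

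Ucp2 and Ucp3, carriers of the inner mitochondrial membrane related to the uncoupling protein of brown fat, rose with LPS. Ucp2 read -2.31 and -1.78 with PBS and 0.04 and 0.11 with LPS, an increase of 2.11 ± 0.15 (adjusted p = 2.48e-05). Ucp3 read -1.86 and -1.54 with PBS and 0.27 and 0.27 with LPS, an increase of 1.97 ± 0.13 (adjusted p = 1.98e-05). Both LPS arrays lay far above both PBS arrays for each. Bnip3, a mitophagy receptor, rose by 0.38 ± 0.09 (adjusted p = 0.0293). Acod1, the macrophage enzyme that makes itaconate, an inhibitor of complex II, was well above background on the LPS arrays only. It was at least 8.71-fold higher there, taking the lowest signal well above background on each PBS array as its bound. The test (adjusted p = 0.000794, limma) belongs to its fitted effect of 4.37, which used the PBS signals not well above background, and not to this bound. In all, 4 of 11 tested genes of this list rose and 0 fell (5.62% and 4.54% of all genes). Markers of neutrophils and monocytes moved with LPS as well, 6 of 7 tested rising with a median of 2.40 and a log2 summed signal of 2.81 and 3.37 on the PBS arrays and 4.86 and 4.79 on the LPS arrays. The part of blood cells in the Ucp2 and Acod1 values was not tested. Only the calls of Ucp2 and Ucp3, of the 10 calls in these lists, held in every alternative and with every array left out in turn, and the other 8 were lost in at least 1 alternative and with at least 2 of the 4 arrays left out.

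**Figure D5:**
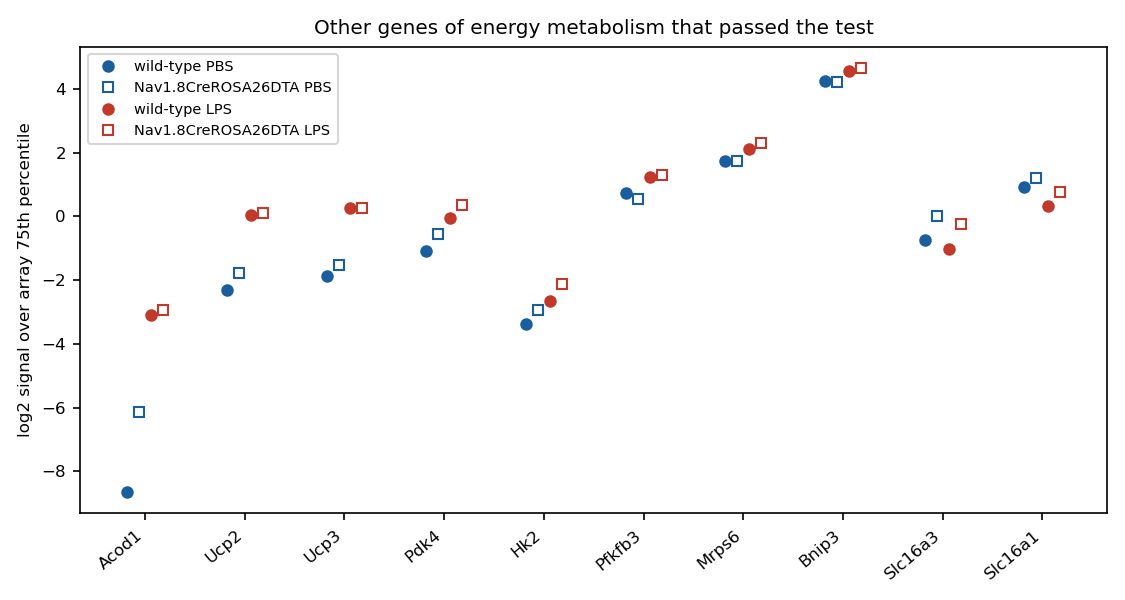
Log2 signal over the array's 75th percentile for the genes of the other energy metabolism lists that passed the test for LPS or genotype, 1 point per array (blue PBS, red LPS; filled circles wild-type, open squares Nav1.8CreROSA26DTA). Ucp2 and Ucp3 lie near 0 with LPS and between -2.31 and -1.54 with PBS; levels of different genes are not comparable.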

How the data were processed

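Total RNA of whole brain was extracted with TRIzol, labelled with Cy3 and hybridised to single-colour Agilent arrays, per the labels. Feature Extraction is given as version 11.0.1.1 in the submitters' processing notes and as 12.0.3.1 in the file headers, where the grid is on mouse build mm9. The deposited intensity, the processed signal, is background-subtracted and detrended within each array, per the file headers. The authors' deposited value table held that intensity times 1 factor per array (1.82, 2.09, 1.83 and 1.57), within 0.1% for at least 59304 of 59305 spots; the origin of the factors is unstated. Spot flags are 0 or 1, per the file headers.

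Spots marked as outliers (81 to 96 per array) were left out, spots of a probe were averaged, and log2 values were set against each array's 75th percentile (612, 514, 634 and 726). On each array 66.5% to 69.5% of spots exceeded background clearly and 0 were saturated. Precision is limited by having 1 array per group. Probes were named by accession through a RefSeq gene table of GRCm38.p6 (33767 of 56605 probes had 1 symbol). Each gene took 1 probe, chosen by the number of arrays where it was well above background and then by brightness, and was tested if well above background on at least 2 arrays. Effects were fitted over all 17132 genes with limma 3.58.1 in R 4.3.3 (lmFit, eBayes with intensity trend, terms for genotype and agent), and the fit was tested on simulated data. Where Acod1 was not well above background, its fold was set against the lowest signal well above background on the array.

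The members, the pathway and marker lists and the tests were chosen with earlier results of these data known. Members with values were the highest and lowest of each complex for each effect, the paralogs, the 5 with the largest difference of LPS responses, and those below background; of other lists, the genes past the threshold. Uqcrfs1, Uqcrb, Sdhb, Atp5o, Atp5d, Ndufb8, Ppargc1a, Ppargc1b, Tefm, Ssbp1 and Pvalb were added after their values were seen. Alternatives were normexp, scaling to the median, cyclic loess, quantile normalisation, the deposited value table, other filters on dim probes, no intensity trend, all probes, and each array left out. Normexp used the median spot signal in place of the mean signal planned. The shorter NRF1 letters were chosen after the longer match had been counted, and both are given.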

Additional observations from a re-analysis of the deposited data

Results flagged for a closer look

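Ndufab1 and Cox7b2 stood out because their LPS responses pointed in opposite directions in the genotypes. Ndufab1 responded by -0.42 in wild-type and 0.34 in Nav1.8CreROSA26DTA mice, a difference of 0.76. Cox7b2 responded by -0.39 and 0.49, a difference of 0.87. With 1 array per group neither difference was tested. Both probes were well above background on all 4 arrays but among the 3 dimmest of the tested members.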

How the results depend on the processing

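Each of 13 alternatives to the reported processing, the left-out arrays included, was fitted in turn. Most changed a single choice; normexp also took the median spot signal with an offset, and with an array left out the other factor was dropped from the model as well and 1 arm held a single array, assumed to vary like the rest. The number of members that rose stayed at 0 in all of them, as did both counts for genotype. The number that fell became 1 (Atp5k) with normexp, with median scaling and with no filter on dim probes.

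The median LPS effect, -0.08 as reported, was -0.13 with median scaling, 0.017 with cyclic loess, 0.020 with quantile normalisation and -0.0095 in the deposited value table, and ran from -0.098 to -0.053 with an array left out. The median genotype effect, 0.032 as reported, was 0.047, -0.0039, -0.011 and -0.0047 under the same settings, and ran from -0.023 (without the wild-type LPS array) to 0.071 with an array left out. With median scaling and in the deposited table, which apply 1 factor per array, all genes moved alike. The member median minus that of all genes stayed at -0.046 for LPS and 0.010 for genotype in both. With normexp the member median was -0.054 for LPS and 0.026 for genotype, and its difference from all genes was 0.007 for each. The cause of the other shifts was not tested. Of 858 recomputed effects of 33 named members (Cox8c was not tested), 92 changed sign, and in 1 of these both values exceeded their own standard error: the LPS effect of Cox6a1 became 0.12 with quantile normalisation. Calls over all genes for LPS numbered 1740 as reported, 430 without the intensity trend, 3149 with no filter and 461 to 625 with an array left out. For genotype they were 70, 0, 958 and 0, and 382 with normexp, 197 with median scaling, 125 with quantile normalisation, 19 with cyclic loess and 28 in the deposited value table. No paired analysis was possible because each group holds 1 array.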
